A study of Mus musculus with 12 samples.

Results

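The 35 genes described here are induced by interferons, the secreted proteins that cells release on sensing a virus, and they were read in natural killer (NK) cells from mouse bone marrow. They were chosen by name, as a list of interferon-stimulated genes, and found by their Ensembl gene IDs. All 35 had a row among the 37991 genes of the deposited table, and 32 of them passed the filter on low values and were tested. Oas2, Oasl1 and Ifi44 did not pass it and are given as levels only. The series holds 12 bulk RNA-seq libraries of NK1.1+CD49b+ cells from C57Bl/6 mice, with 3 independent samples in each of 4 groups. The Ctrl mice carried floxed alleles (Id2F/F, or Id2F/FTcf7F/F per the series title) and no Cre. The other groups carried Ncr1Cre, which is active in cells that express NKp46, together with Id2F/F (Id2KO), Tcf7F/F (Tcf1KO) or both (DKO). The mice's ages are not given in the sources used here. Because Ctrl mice had no Cre, the presence of Cre and the loss of a gene cannot be told apart in a comparison with Ctrl, whereas DKO, Id2KO and Tcf1KO all carried it. Comparisons averaged over Tcf7 or Id2 status, and the interaction of both, also include Ctrl, so the same limit applies to them.

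Type I interferons bind the receptor made of IFNAR1 and IFNAR2, and the kinases JAK1 and TYK2 then phosphorylate STAT2 among other proteins. STAT2 and IRF9 are parts of the complex ISGF3, which binds the interferon-stimulated response element (ISRE) in the promoters of its target genes. Interferon-gamma, which NK cells themselves secrete, acts through IFNGR1 and IFNGR2 and leads to binding at the GAS element. Id2 is an inhibitor of E proteins needed for NK cell development, and Tcf7 encodes TCF1, a transcription factor of immature NK cells.

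The ISRE shows in the promoters of many members. RefSeq windows on GRCm38.p6, from 250 bases before to 50 bases after the start site, were found for 26 of the 35 members. The ISRE core, searched as GAAA, any 2 bases and GAAA again on both strands, occurred in 14 of these 26, against 3.99% of all 27025 genes with a window. The GAS letters TTCNNNGAA, which read the same on both strands, occurred in 8 of the 26, against 9.55% of all genes. The stretches below come from 8 members whose values are described in full or which stand for their family, and are shown so that the shared core can be seen. They are written 5′ to 3′ on the strand of the gene, with the core letters in capitals, including overlapping copies, and a core on the other strand reads as TTTC, 2 bases and TTTC.
Stat2, chr10:128270261-128270300, plus strand: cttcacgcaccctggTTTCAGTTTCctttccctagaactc
Isg15, chr4:156200860-156200899, minus strand: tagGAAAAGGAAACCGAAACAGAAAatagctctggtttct
Bst2, chr8:71537572-71537611, minus strand: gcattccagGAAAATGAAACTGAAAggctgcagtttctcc
Oas1a, chr5:120907526-120907554, minus strand: ccttctcggGAAATGGAAACTGAAAatct
Oas3, chr5:120777710-120777749, minus strand: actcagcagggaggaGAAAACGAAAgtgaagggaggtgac
Ifit1, chr19:34640789-34640828, plus strand: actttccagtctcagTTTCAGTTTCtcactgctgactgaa
Ifit3, chr19:34583392-34583431, plus strand: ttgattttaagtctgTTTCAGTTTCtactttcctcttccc
Rsad2, chr12:26456548-26456587, minus strand: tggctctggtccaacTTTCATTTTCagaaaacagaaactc
Isg15 holds 3 overlapping copies and Bst2 and Oas1a hold 2 each, while the other stretches hold 1. A match describes letters in the window and shows no binding.

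Levels are FPKM (sequenced fragments per kilobase of gene, scaled by library size) as deposited, and the library sizes that these imply lay between 13977524 and 20209587 reads. The members' recovered reads ran from 0 to 5046 per library with a median of 418. Id2 stood at 124 to 170 FPKM in Ctrl, 17.1 to 19.2 in Id2KO, 102 to 126 in Tcf1KO and 36.8 to 48.8 in DKO. Tcf7 did not separate in this way, with 37.7 to 46.5 FPKM in Ctrl, 80.9 to 92.1 in Id2KO, 29.6 to 38.0 in Tcf1KO and 53.9 to 73.3 in DKO. The libraries labelled DKO thus lay above every Ctrl library in whole-gene Tcf7, which goes against the Tcf7 part of the label taken alone. The Id2KO libraries, labelled without Tcf7F/F, lay above every Ctrl library too. All DKO libraries lay below every Id2KO library, which goes with the label. A whole-gene value cannot show whether the floxed part was removed, and each direction drawn from Tcf1KO or DKO rests on the labels. All 12 NK cell markers on the list passed the filter, and they summed to 2479 to 2660 FPKM in Ctrl, 1531 to 2236 in Id2KO, 2034 to 2383 in Tcf1KO and 2024 to 2797 in DKO. In DKO against Ctrl 9 of the 12 were below 0, with a median difference of -0.41. Ncr1, which encodes NKp46 and whose locus drives the Cre, and Eomes, a transcription factor of NK cells, fell with Tcf7 targeted, averaged over Id2 status, by limma differences of -1.10 ± 0.16 (adjusted p = 0.0208) and -0.69 ± 0.12 (0.0454). Markers of other marrow cells were also present: the 15 neutrophil and myeloid markers, 14 of them past the filter, summed to 737 to 3150 FPKM in Ctrl, 12 to 751 in Id2KO, 1029 to 3644 in Tcf1KO and 173 to 442 in DKO. All 14 tested were below 0 in DKO against Ctrl, with a median of -1.85. Elane, the neutrophil elastase gene, was at 0 in all 3 Id2KO libraries and in DKO replicate 3.

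No interferon-stimulated gene passed the test in any comparison, and the double-targeted cells had the lowest levels of most of them. DKO had the lowest group mean for 25 of the 35 members, against 25.8% of all tested genes, and Tcf1KO had the highest for 18, against 21.9%. The members' counts include the untested Oas2, Oasl1 and Ifi44, which were each lowest in DKO. Of these, Oas2 was also highest in Tcf1KO. Differences were tested with limma on log2(FPKM + 1), and a gene was called at a p-value below 0.05 after Benjamini-Hochberg adjustment over all 12384 tested genes. In Id2KO against Ctrl 0 of 32 members were called, against 0.178% of all genes, and in DKO against Ctrl 0 of 32, against 0.145%. In Tcf1KO against Ctrl 0 members were called, and the share of all genes was 0.0%. DKO against Id2KO called 0 members, against 0.121% of all genes, and DKO against Tcf1KO called 0, against 0.0565%. So few genes of any kind were called that 0 of 32 is near the background.

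At an unadjusted p below 0.05 with all 12 libraries, every member past that line was lower in the group named first. In DKO against Tcf1KO there were 11 lower and 0 higher, against 3.77% and 2.96% of all genes. DKO against Ctrl gave 6 lower and 0 higher, against 4.89% and 4.55%. DKO against Id2KO gave 4 lower and 0 higher, against 6.08% and 4.83%. In Id2KO against Ctrl 1 was lower and 0 higher, against 4.17% and 5.53% of all genes, and in Tcf1KO against Ctrl there was none in either direction, against 2.28% lower and 2.52% higher. With Id2 targeted against not, averaged over Tcf7 status, 10 were lower and 0 higher, against 5.53% and 5.38%. With Tcf7 targeted against not, averaged over Id2 status, 2 were lower and 0 higher, against 4.91% and 4.83%. Single libraries moved these counts. In DKO against Ctrl the number lower was 3 without Ctrl replicate 2 or DKO replicate 3 and 10 without Ctrl replicate 3. In DKO against Tcf1KO it was 6 without Tcf1KO replicate 2 and 7 without DKO replicate 3, and in DKO against Id2KO 2 without DKO replicate 3. In Id2KO against Ctrl it was 4 without Ctrl replicate 3 and 5 without Id2KO replicate 3. In the average for Id2 it was 4 without Ctrl replicate 2 or Tcf1KO replicate 2, 5 without DKO replicate 3 and 6 without Ctrl replicate 1 or Id2KO replicate 2. In the average for Tcf7 it was 1 without Ctrl replicate 1 or 2, Tcf1KO replicate 1 or 3, or DKO replicate 3. Some members were higher with a library left out. In Tcf1KO against Ctrl 2 were higher without Ctrl replicate 2. There 1 was higher without Id2KO replicate 2 or 3, Tcf1KO replicate 1, or DKO replicate 1 or 3. Without Ctrl replicate 3 or Tcf1KO replicate 2, 1 was lower there. In Id2KO against Ctrl 1 was higher without Ctrl replicate 2 or Id2KO replicate 2. In DKO against Tcf1KO 1 was higher without Tcf1KO replicate 3, and in the average for Tcf7 without Id2KO or DKO replicate 3. The members share regulation and are not independent of each other, so these counts describe the list and carry no p-value.

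The median difference over the 32 tested members was -0.41 in DKO against Ctrl, with 27 below 0, and -0.48 in DKO against Tcf1KO, with 30 below 0. It was -0.15 in Id2KO against Ctrl, with 19 below 0, and 0.14 in Tcf1KO against Ctrl, with 13 below 0. DKO against Id2KO gave -0.19, with 24 below 0. Over all genes the medians lay within 0.01 of 0. The Tcf1KO median became -0.050 without Ctrl replicate 3 and -0.02 without Tcf1KO replicate 2. The Id2KO median became -0.04 without Ctrl replicate 2, -0.08 without Id2KO replicate 2 and -0.23 without Ctrl replicate 3. The NK cell markers also had a median of -0.41 in DKO against Ctrl. Theirs was -0.02 in DKO against Tcf1KO, -0.30 in Tcf1KO against Ctrl, -0.27 in Id2KO against Ctrl and -0.11 in DKO against Id2KO. The part of the cells' makeup in the members' differences was not tested. These comparisons share libraries, so their values are given side by side and not set against each other. In bulk RNA, fewer cells of a type and less RNA per cell cannot be told apart.

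**Figure D1:**
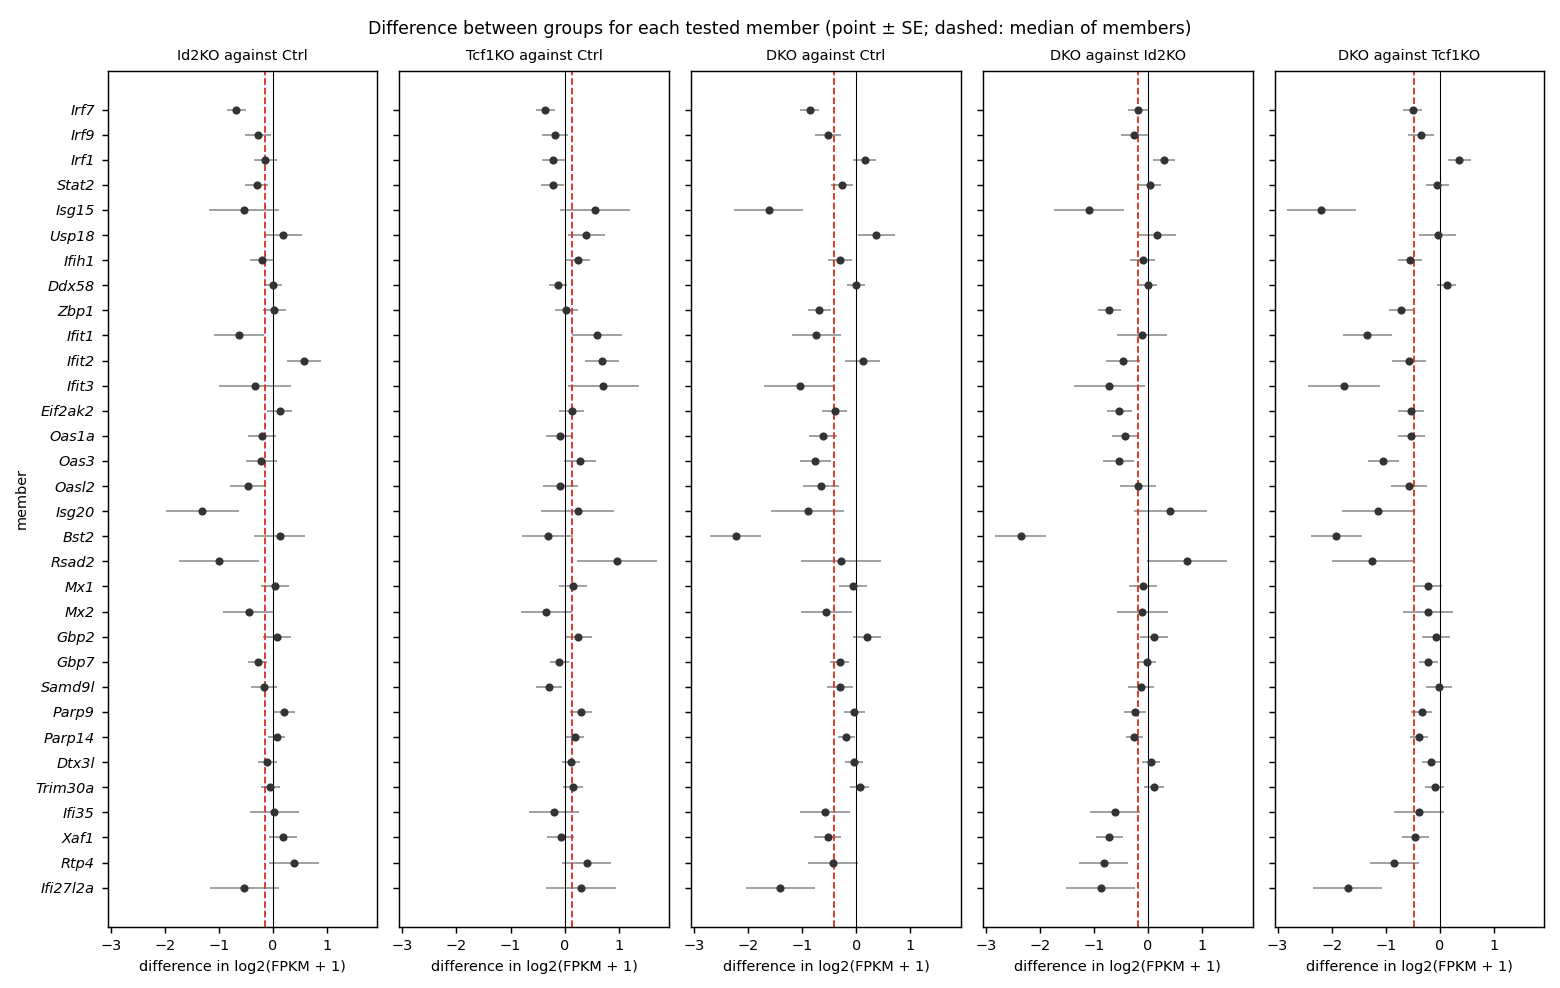
Difference in log2(FPKM + 1) for each of the 32 tested members (vertical axis) in 5 comparisons (panels), as limma's estimate ± SE with 3 libraries a group; the dashed line is the members' median. The points of DKO against Ctrl and of DKO against Tcf1KO lie mostly left of 0, with medians of -0.41 and -0.48, while those of Tcf1KO against Ctrl lie on both sides.

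Among the transcription factors, Irf7 was lower in all 3 targeted groups than in Ctrl, by differences that did not pass the test. Irf7 (ENSMUSG00000025498, chromosome 7, 141262706 to 141266481, minus strand, GENCODE M21 on GRCm38) encodes the factor that amplifies type I interferon production. It stood at 2.90, 3.91 and 2.87 FPKM in Ctrl, at 1.49, 2.03 and 1.41 in Id2KO, at 2.31, 2.22 and 2.30 in Tcf1KO and at 1.57, 1.12 and 1.28 in DKO. Every Ctrl library lay above every library of the other 3 groups, and all Tcf1KO libraries lay above all Id2KO and DKO libraries. The difference from Ctrl was -0.68 ± 0.18 (SE) in Id2KO with an adjusted p of 0.239, -0.36 ± 0.18 in Tcf1KO with 0.999, and -0.86 ± 0.18 in DKO with 0.120. Averaged over Tcf7 status, the 6 libraries with Id2 targeted lay below the 6 without by 0.59 on this scale (-0.59 ± 0.13, adjusted p = 0.0972), and the libraries did not overlap. Of all tested genes, 0.371% were lower and 0.525% higher without overlap in that comparison, and 0.299% were called in it. Irf7 was the only member lower without overlap there, and 0 were higher.

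Irf7 passed the threshold under another gene length or another model. With reads divided by merged exon length, a setting chosen after seeing the data, its DKO difference from Ctrl was -1.14 with an adjusted p of 0.0498, and its difference averaged over Tcf7 status was -0.79 with 0.0419. With voom on recovered reads the latter was -0.89 with 0.0404. The length behind its deposited FPKM is 15031 bases, the merged exons cover 3776, and it had 265 to 822 reads per library.

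Irf9, the DNA-binding part of ISGF3, stood at 6.35, 8.02 and 3.54 FPKM in Ctrl, at 4.35, 5.13 and 4.19 in Id2KO, at 5.21, 5.28 and 4.30 in Tcf1KO and at 3.12, 4.72 and 3.28 in DKO. Ctrl replicate 3 lay inside the range of DKO, and the DKO difference of -0.53 ± 0.24 had an adjusted p of 0.541. Stat2, another part of the same complex, stood at 3.96, 4.35 and 2.82 FPKM in Ctrl, at 3.00, 2.27 and 3.17 in Id2KO, at 2.36, 3.98 and 2.85 in Tcf1KO and at 2.40, 2.90 and 3.43 in DKO. Its groups overlapped throughout. Irf1, a factor induced mainly by interferon-gamma, was the only member with its highest mean in DKO, at 8.99, 8.13 and 11.1 FPKM, against 7.16, 7.49 and 10.5 in Ctrl, with 6.21, 7.32 and 9.04 in Id2KO and with 5.98, 6.54 and 8.91 in Tcf1KO. These ranges overlapped as well, and the DKO difference from Ctrl was 0.16 ± 0.21 with an adjusted p of 0.880.

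**Figure D2:**
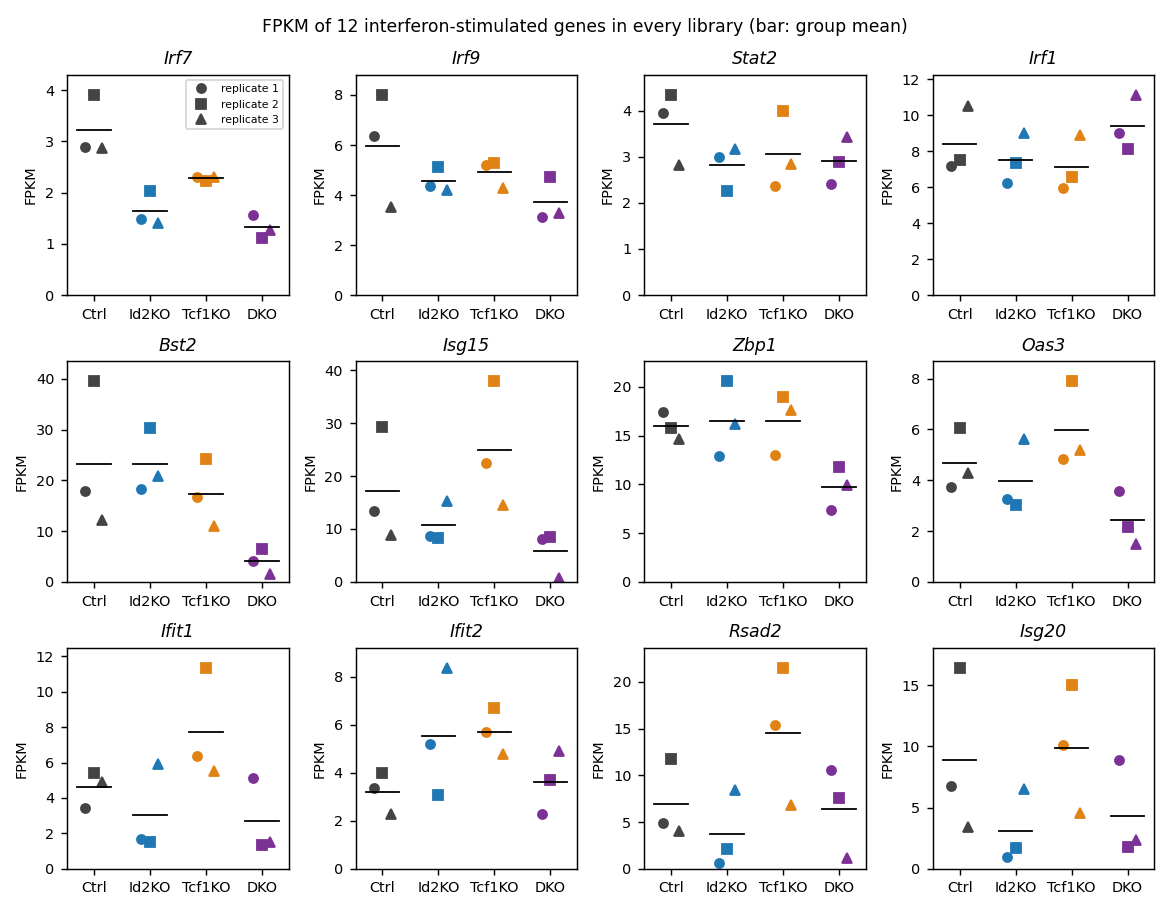
FPKM (vertical axes, from 0) of 12 members in every library by group; the marker shape gives the replicate number and the bar the mean of the 3 libraries. Irf7 separates Ctrl from all other groups and Bst2 and Zbp1 separate DKO, with Bst2 at 1.56 to 6.55 FPKM in DKO, while Irf9, Stat2 and Irf1 overlap.

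Isg15 encodes a ubiquitin-like protein that is attached to other proteins, and Usp18 the protease that removes it and also damps the type I receptor. Isg15 stood at 13.5, 29.3 and 8.92 FPKM in Ctrl, at 8.65, 8.20 and 15.2 in Id2KO, at 22.4, 37.9 and 14.5 in Tcf1KO and at 8.04, 8.46 and 0.742 in DKO. DKO lay below Ctrl and Tcf1KO without overlap but within reach of Id2KO, and DKO replicate 3 rested on 8 reads. The difference between DKO and Tcf1KO was -2.19 ± 0.64 with an adjusted p of 0.410, and it ranged from -2.61 to -1.39 when single libraries were left out. Usp18 did not share this order: its group means were 5.90 ± 2.18 FPKM in Ctrl (SD, n = 3), 6.88 ± 2.37 in Id2KO, 8.33 ± 4.06 in Tcf1KO and 7.63 ± 1.02 in DKO.

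Of the sensors, Zbp1 was lowest in DKO, and Ddx58 had near-equal group means. Zbp1 (chromosome 2, 173206612 to 173218923, minus strand) encodes a receptor for Z-form nucleic acids that can start cell death. It stood at 17.4, 15.8 and 14.7 FPKM in Ctrl, at 12.9, 20.5 and 16.1 in Id2KO, at 13, 19 and 17.6 in Tcf1KO and at 7.32, 11.8 and 9.96 in DKO. All 3 DKO libraries lay below the other 9. The DKO difference was -0.68 ± 0.22 from Ctrl (adjusted p = 0.335), -0.71 ± 0.22 from Id2KO (0.248) and -0.72 ± 0.22 from Tcf1KO (0.434). Ddx58, which encodes the RNA receptor RIG-I, had group means from 6.98 to 7.73 FPKM. Ifih1, which encodes the RNA receptor MDA5, had 1.83 to 2.72 FPKM in Tcf1KO and 0.917 to 1.54 in DKO, without overlap.

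The 10 RNA-binding and translation effectors had the lowest median of any role with more than 2 tested members in DKO against Ctrl, at -0.69 over the 8 tested, with 7 below 0. In DKO against Tcf1KO all 8 were below 0 with a median of -0.81. Oas3 makes the 2-5A that activates RNase L, and stood at 3.75, 6.04 and 4.28 FPKM in Ctrl, at 3.28, 3.02 and 5.61 in Id2KO, at 4.83, 7.89 and 5.18 in Tcf1KO and at 3.59, 2.18 and 1.51 in DKO. DKO lay below Ctrl by a narrow gap and below Tcf1KO by a wider one, with a difference from Tcf1KO of -1.04 ± 0.29 and an adjusted p of 0.374. Oas1a, of the same family, was at 1.18 to 1.76 FPKM in Ctrl and 0.355 to 0.829 in DKO, also without overlap. Of its windows of 76 bases, the read length, 47.3% also occur in Oas1g, so its reads may be split between these copies.

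Ifit1, Ifit2 and Ifit3, neighbours on chromosome 19 that bind viral RNA or block its translation, did not all order the groups alike: Ifit1 and Ifit3 had their highest mean in Tcf1KO, followed by Ctrl, Id2KO and DKO, while Ifit2 had its lowest in Ctrl. Ifit1 stood at 3.46, 5.41 and 4.92 FPKM in Ctrl, at 1.67, 1.51 and 5.93 in Id2KO, at 6.37, 11.3 and 5.55 in Tcf1KO and at 5.13, 1.36 and 1.53 in DKO. Tcf1KO lay above Ctrl and DKO without overlap. Ifit2 stood at 3.39, 3.97 and 2.27 FPKM in Ctrl, at 5.20, 3.07 and 8.36 in Id2KO, at 5.68, 6.70 and 4.79 in Tcf1KO and at 2.26, 3.70 and 4.90 in DKO. Only its Tcf1KO libraries lay apart from Ctrl, with a difference of 0.69 ± 0.32 and an adjusted p of 0.999; the interaction, which is DKO minus Tcf1KO minus the difference between Id2KO and Ctrl, was -1.15 ± 0.45 with 0.831. No gene was called in the interaction (0.0% of all genes), where 3 members were lower and 0 higher at an unadjusted p below 0.05, against 3.59% and 2.34% of all genes. The number lower was 1 without Ctrl replicate 3 or Tcf1KO replicate 2, 5 without Ctrl replicate 2 or Tcf1KO replicate 1, and 8 without DKO replicate 2. Ifit3 ran from 0.482 to 8.08 FPKM, and 40.7% of its windows of 76 bases also occur in Ifit3b.

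Isg20, which encodes an RNA exonuclease, varied widely within groups, at 6.76, 16.4 and 3.41 FPKM in Ctrl, at 0.951, 1.66 and 6.52 in Id2KO, at 10.1, 15 and 4.58 in Tcf1KO and at 8.91, 1.80 and 2.33 in DKO. No pair of groups was apart in all libraries, and the Id2KO difference from Ctrl of -1.31 ± 0.68 (adjusted p = 0.581) ranged from -1.88 to -0.79 when single libraries were left out. Eif2ak2, the kinase PKR that stops translation, stood at 10.1 to 12 FPKM in Ctrl and 5.55 to 9.86 in DKO. Oasl2 was at 1.58 to 1.95 FPKM in Tcf1KO and 0.608 to 1.15 in DKO. Neither pair of ranges overlapped.

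Bst2 had the largest difference of any tested member in DKO against Ctrl and against Id2KO. Bst2 (ENSMUSG00000046718, chromosome 8, 71534255 to 71537456, minus strand) encodes tetherin, which holds budding virus particles at the cell surface and is also a surface marker of plasmacytoid dendritic cells. It stood at 17.9, 39.5 and 12.3 FPKM in Ctrl, at 18.2, 30.3 and 20.9 in Id2KO, at 16.7, 24.2 and 11 in Tcf1KO and at 4.11, 6.55 and 1.56 in DKO. The 3 DKO libraries, with 17 to 79 reads, lay below all 9 others, and the single-targeted groups overlapped Ctrl. The DKO difference was -2.23 ± 0.47 from Ctrl (adjusted p = 0.121), -2.35 ± 0.47 from Id2KO (0.111) and -1.92 ± 0.47 from Tcf1KO (0.319). Averaged over Id2 status, the difference with Tcf7 targeted was -1.33 ± 0.33 with an adjusted p of 0.175, in a comparison that called 0.371% of all genes and 0 members. In that comparison 0 members were lower or higher without overlap, against 0.355% and 0.525% of all genes. The interaction was -2.04 ± 0.67 with an adjusted p of 0.831.

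Markers of other cells differed between the same groups, and their part in the Bst2 values was not tested. The neutrophil and myeloid sum was lower in DKO than in Ctrl, and it was lowest in Id2KO replicate 1, at 12 FPKM, where Bst2 stood at 18.2 FPKM. All 12 plasmacytoid dendritic cell markers together summed to 16.0 to 23.7 FPKM in Ctrl and 29.1 to 46.8 in DKO, most of it from Cox6a2. Only 5 of the 12 passed the filter. Of these 5, 4 were below 0 in DKO against Ctrl, with a median difference of -0.47. Siglech, a defining marker of those cells, was at most 0.58 FPKM in any library and at 0 in Id2KO replicate 2 and DKO replicate 2.

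Rsad2 encodes viperin and spread widely, at 4.91, 11.8 and 4.08 FPKM in Ctrl, at 0.659, 2.07 and 8.39 in Id2KO, at 15.4, 21.4 and 6.79 in Tcf1KO and at 10.5, 7.57 and 1.18 in DKO. All its groups overlapped. Gbp2 and Gbp7, guanylate-binding proteins that attack the vacuoles of intracellular microbes, had DKO differences from Ctrl of 0.19 ± 0.26 and -0.31 ± 0.18, and Mx1 ran from 0.633 to 1.91 FPKM. Mx2 (0 reads in DKO replicate 1, where 3 reads would be 0.0829 FPKM) ran up to 2.19, and is annotated as a polymorphic pseudogene. Samd9l, an inhibitor of translation, ran from 21.4 to 47.2 FPKM, with both ends in Tcf1KO.

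Of the ADP-ribosylation and ubiquitin ligase genes, Parp9 and Dtx3l, which act as a pair, overlap on opposite strands of chromosome 16 by 458 exonic bases, so reads there cannot be assigned without strand. Parp9 stood at 2.46, 1.92 and 2.56 FPKM in Ctrl, at 2.73, 3.42 and 2.41 in Id2KO, at 3.07, 3.20 and 2.97 in Tcf1KO and at 2.17, 1.57 and 3.13 in DKO. Tcf1KO lay above Ctrl by 0.30 ± 0.20 with an adjusted p of 0.999, without overlap. In DKO against Ctrl the 4 genes of this role, with Parp14 and Trim30a, had differences between -0.18 and 0.06.

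The 4 tested members outside these roles were all below 0 in DKO against Ctrl, against Id2KO and against Tcf1KO, with medians of -0.55, -0.77 and -0.65. Xaf1, a pro-apoptotic partner of XIAP, stood at 5.17, 4.14 and 4.36 FPKM in Ctrl, at 4.70, 6.89 and 4.57 in Id2KO, at 3.07, 5.34 and 4.64 in Tcf1KO and at 2.38, 4.40 and 2.12 in DKO. DKO lay apart from Id2KO only, with a difference of -0.71 ± 0.25 and an adjusted p of 0.328. Ifi27l2a ran from 3.03 to 5.47 FPKM in DKO and from 6.73 to 25.2 in Tcf1KO without overlap, and from 5.16 to 24.1 in Ctrl. Ifi35 and Rtp4 overlapped between all groups.

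Counting members whose libraries did not overlap, 7 were lower in DKO than in Ctrl (Irf7, Isg15, Zbp1, Eif2ak2, Oas1a, Oas3 and Bst2), against 7.27% of all genes, and 0 were higher, against 6.28%. DKO lay below Tcf1KO in 12 members, against 6.9% of all genes, and above it in 0, against 5.74%. It lay below Id2KO in 3 (Zbp1, Bst2 and Xaf1), against 8.32%, and above it in 0, against 6.34%. Id2KO lay below Ctrl in Irf7 alone, against 6.75%, and above it in 0, against 7.11%. Tcf1KO lay above Ctrl in 3 (Ifit1, Ifit2 and Parp9), against 4.96%, and below it in 2 (Irf7 and Mx2), against 5.73%. An exact permutation test of 3 against 3 libraries cannot go below 0.10 for any one of them. Leaving out a library makes separation easier by construction: the DKO count below Ctrl was then 8 to 15, with 15 reached without Ctrl replicate 3 and without DKO replicate 2, and the count below Tcf1KO was 12 to 19, with 19 reached without DKO replicate 2.

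The members varied by library as well as by group. Tcf1KO replicate 2 was the highest of its group in 26 of the 32 tested members and the highest of all 12 libraries in 12. Ctrl replicate 2 was highest of all in 9, and Ctrl replicate 3 was the lowest Ctrl library in 22. DKO replicates 1 and 3 were the lowest of all libraries in 10 and 8 members. The median deviation of the members from their mean over libraries ran from -0.40 in DKO replicate 3 to 0.39 in Tcf1KO replicate 2, while the median over all tested genes stayed between -0.11 and 0.06.

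**Figure D3:**
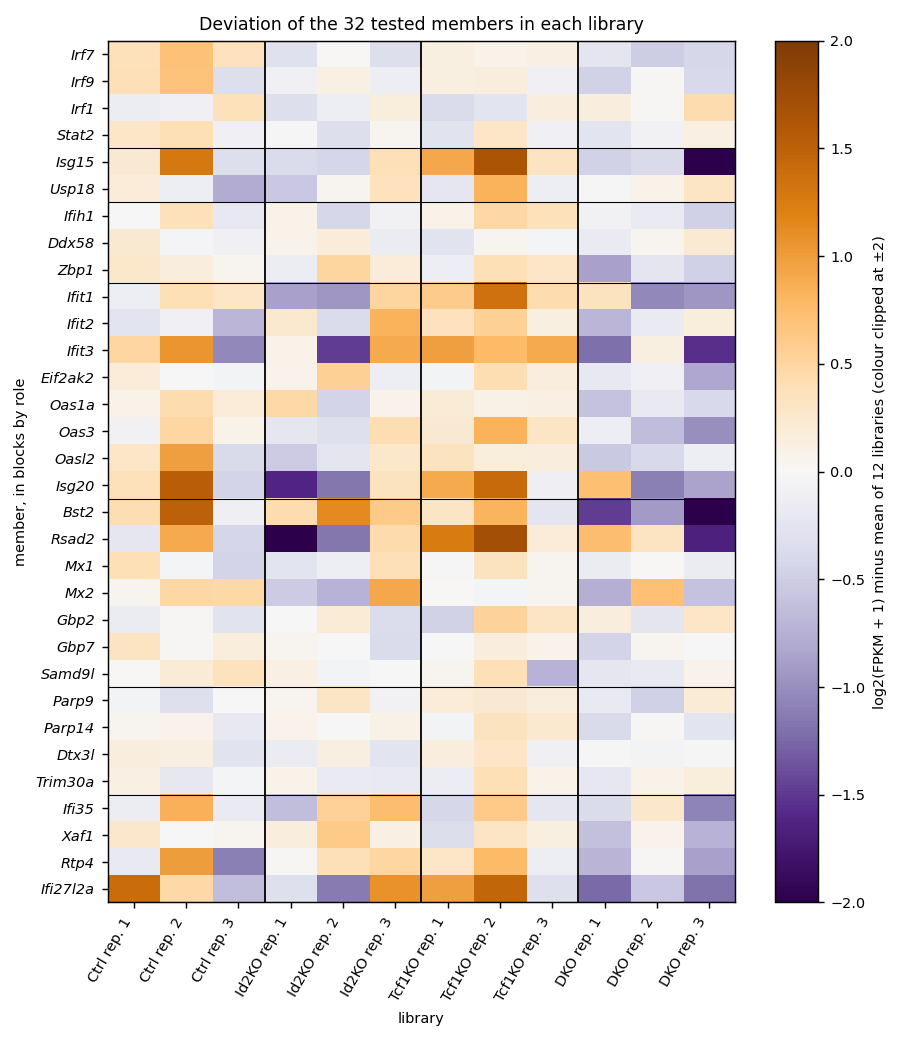
Deviation of each tested member (rows, in blocks by role) from its mean over the 12 libraries (columns, by group), in log2(FPKM + 1), with colours clipped at ±2. Orange is above and purple below the mean; Tcf1KO replicate 2 and Ctrl replicate 2 are mostly orange, and DKO replicates 1 and 3 mostly purple.

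Ctrl replicate 2 and Tcf1KO replicate 2 also held many transcripts of other marrow cells. The erythroid markers, 13 of 13 past the filter, summed to 780 to 4860 FPKM in Ctrl, 168 to 1949 in Id2KO, 1359 to 3599 in Tcf1KO and 455 to 2753 in DKO, and these libraries had the 2 highest sums. In the neutrophil and myeloid sum Ctrl replicate 2 stood at 3150 FPKM and Tcf1KO replicate 2 at 1589, below Ctrl replicate 1 at 1773. Tcf1KO replicate 1 was highest, at 3644 FPKM, and its median member deviation was 0.11. Within DKO the order differed: replicate 1 had the highest erythroid sum, 2753 FPKM, and a median member deviation of -0.25. T cell markers, many of which NK cells also express, moved with the groups, at 1058 to 1214 FPKM in Ctrl and 1936 to 2391 in DKO, with 13 of 14 past the filter. Monocyte and macrophage markers (12 of 13 past the filter) summed to 408 to 964 FPKM in Ctrl and 515 to 1039 in DKO, and basophil and mast cell markers (11 of 11) to 172 to 651 and 59.4 to 643. B cell markers summed to at most 13.1 FPKM in any library. The part of these other cells in the members' levels was not tested.

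**Figure D4:**
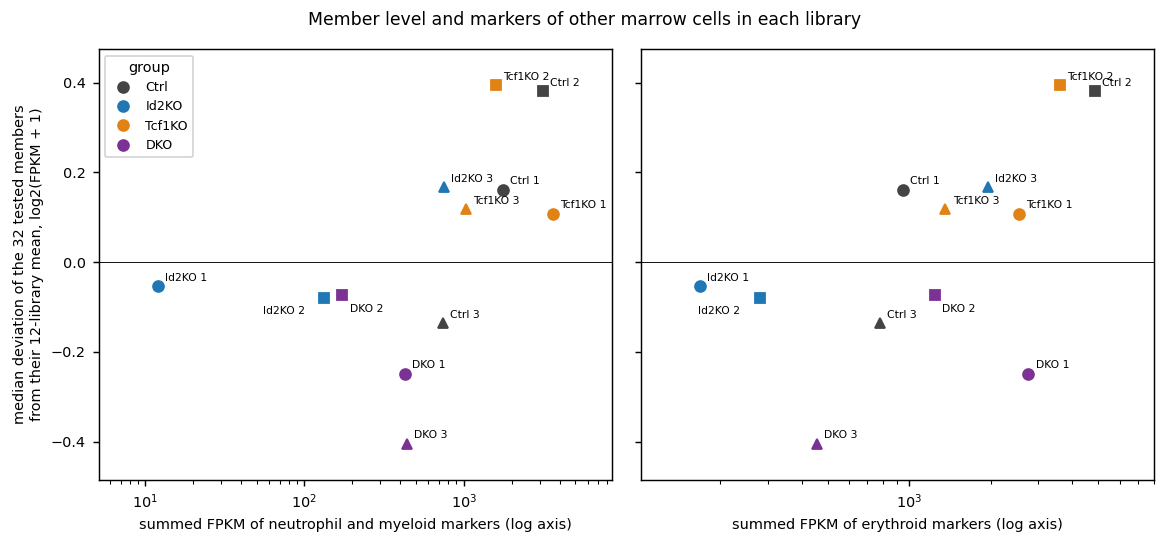
Median deviation of the 32 tested members in each library (vertical axis, log2(FPKM + 1)) against the summed FPKM of neutrophil and myeloid markers (left) and of erythroid markers (right), both on log axes; colour gives the group. Ctrl replicate 2 and Tcf1KO replicate 2 have the 2 highest erythroid sums. Tcf1KO replicate 1 has the highest neutrophil and myeloid sum with a member deviation of 0.11. The 3 DKO libraries lie below 0, as do Ctrl replicate 3 and Id2KO replicates 1 and 2. Ctrl replicate 3 (-0.14) lies lower than DKO replicate 2 (-0.07).

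To compare levels between genes, FPKM was recomputed with merged exon length, since the length behind the deposited values was over 1.5 times the merged exons in 18 of the 35 members. In Ctrl the level ran from 0.774 for Mx2 to 43.7 for Samd9l. Gbp7 (35), Trim30a (28.8) and Zbp1 (27.5) followed Samd9l, and Irf7 had 12.8. Oas2, Oasl1 and Ifi44, the untested members, had 1.68, 2.45 and 0.928. In DKO the level of Bst2 was 3.45, against 19.7 in Ctrl, and that of Isg15 was 5.75 against 17.2.

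**Figure D5:**
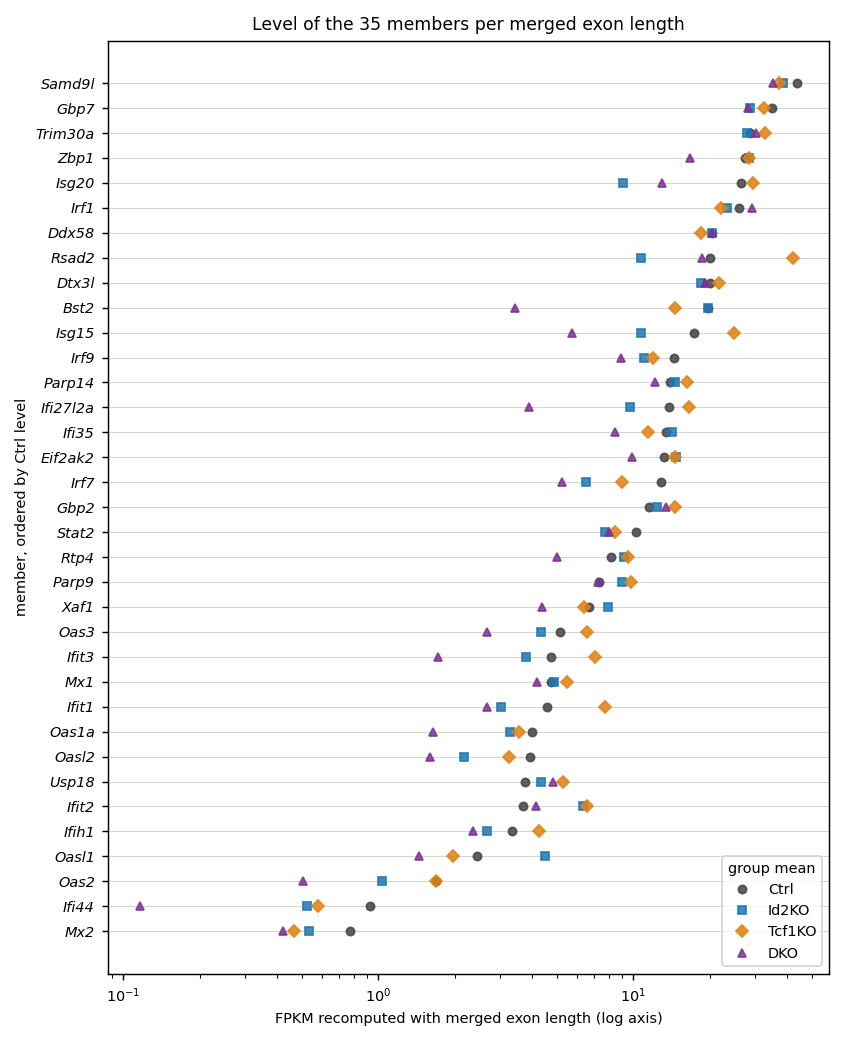
Mean FPKM recomputed with merged exon length (horizontal log axis) of the 35 members in each group, ordered by the Ctrl level. Samd9l is highest in Ctrl at 43.7 and Mx2 lowest at 0.774; the DKO triangles lie left of the other groups for 25 members.

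Genes upstream of the members were measured in the same libraries, from lists of the pathway's other genes. Of 10 interferon genes 8 had a row, and Ifng was the only one tested. Ifng stood at 105, 67.0 and 248 FPKM in Ctrl, at 70.8, 53.7 and 137 in Id2KO, at 79.8, 65.8 and 188 in Tcf1KO and at 213, 111 and 307 in DKO. Its groups overlapped, and the DKO difference from Ctrl was 0.68 ± 0.57 with an adjusted p of 0.779. Ifnb1, Ifna2, Ifna4, Ifne, Ifnl2 and Ifnl3 were listed at 0 in all 12 libraries. Ifnk, a type I interferon of keratinocytes, did not pass the filter and was not tested; it stood at 0.524, 3.15 and 0.928 FPKM in Id2KO and at 0.0889 to 0.381 in Ctrl, without overlap, at 0.0615 to 0.177 in Tcf1KO and at 0.083 to 1.02 in DKO.

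Of 18 receptor and signalling genes 16 were tested and 0 were called in any contrast. Ifnar1 and Ifnar2, the chains of the type I receptor, had DKO differences from Ctrl of 0.18 ± 0.25 and 0.42 ± 0.16, the latter with an adjusted p of 0.425. Ifnar2 stood at 11, 9.55 and 11.2 FPKM in Ctrl and at 13.4, 16.4 and 13.9 in DKO, which did not overlap. Ifngr1 lay between 65.1 and 84.7 FPKM in all libraries, and Ifngr2 between 0 and 3.27. Among the kinases, Jak1 had a DKO difference of -0.21 ± 0.15, Tyk2 of -0.20 ± 0.18 and Jak2 of 0.39 ± 0.15 (adjusted p = 0.470).

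The other pathway lists were alike in having 0 called genes in every contrast. Of 20 nucleic acid sensors and adaptors 17 were tested. Tmem173, which encodes the adaptor STING, stood at 16.9, 21.1 and 20.3 FPKM in Ctrl and at 31.4, 38.2 and 29.4 in Id2KO, with a difference of 0.73 ± 0.19 and an adjusted p of 0.239. Trim25, a ligase that activates RIG-I, stood at 6.15, 6.45 and 5.56 FPKM in Ctrl and at 3.61, 3.71 and 3.29 in DKO, with a difference of -0.64 ± 0.18 and an adjusted p of 0.245. Both pairs of groups were apart in all libraries. All 12 feedback inhibitors were tested, with a median DKO difference from Ctrl of 0.03. Of 13 tested interferon-gamma-inducible GTPases, 8 were below 0 in DKO against Ctrl, with a median of -0.14. Gbp9 had the smallest p there, with a difference of 0.55 ± 0.15 and an adjusted p of 0.253. Of 74 tested genes on the list of other interferon-stimulated genes, 56 were below 0 in DKO against Ctrl, with a median of -0.16, against -0.41 for the members and -0.01 for all genes.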

How the data were processed

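Bulk RNA-seq of 12 libraries was read from 1 deposited table of FPKM, which the authors made; per the submitters' processing notes the tools were Trimmomatic 0.33, TopHat2 2.1.0, HTSeq 0.6.1 and edgeR, on mm10. Whether counting used strand is not given in the sources used here. Each gene's FPKM values rise in equal steps of 1 read, from which whole reads were recovered for 23707 of 23707 genes above 0 (tolerance 0.001 reads, at most 0.05), with 2 genes taken by annotated length. Symbols and positions came from GENCODE M21 (32919 IDs matched).

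The test took 12384 genes that reached FPKM 1 in 3 libraries or more, and ran on log2(FPKM + 1) with limma 3.58.1 in R 4.3.3 (group as the term, all 12 libraries, eBayes with a variance trend, two-sided, Benjamini-Hochberg, threshold 0.05) in 8 contrasts, after a check on simulated data. The p-values set each group difference against the spread between samples within groups, pooled over all groups. Named with values in every library were Irf7, Irf9, Irf1, Stat2 and the 3 members of smallest p in each contrast; from the pathway lists, where none was called, the rule was the 2 of smallest p against Ctrl with receptors and kinases, of which only some are given, and several by their difference alone. Rsad2 was given in full, and Ifi27l2a, Eif2ak2, Oas1a, Oasl2 and Ifih1 by range, after their values were seen. The members and lists were chosen with earlier results of these data known. Tables and figures used matplotlib 3.10.9, numpy 2.4.6 and pandas 2.3.3 in Python 3.11.15.

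Alternatives were pseudocounts of 0.1 and 0.5, filtering at FPKM 5 or not at all, quantile normalization or median scaling, robust variance, no variance trend, array weights, a replicate block, only the compared groups, a threshold of 0.01, each library left out, and voom on recovered reads. Merged exon length, library sizes without mitochondrial rRNA, and leaving out the 3 libraries of lowest array weight were added after seeing the data.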

Additional observations from a re-analysis of the deposited data

How the results depend on the processing

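Over 28 settings, 651 of 658 values of the 24 named member results kept their direction and their side of the threshold, 7 passed the threshold and 0 reversed. Members called in any contrast numbered 0 in 214 of 221 recomputations. The exceptions were 1 member (Irf7) per merged exon length in DKO against Ctrl and in the Id2 contrast averaged over Tcf7 status, 1 (Irf7) with voom in the latter, and 1 (Bst2) with the replicate number as a block in DKO against Ctrl (adjusted p = 0.0223), against Id2KO (0.0204), against Tcf1KO (0.0344) and in the Tcf7 contrast averaged over Id2 status (0.0251). The sample titles give only a replicate number, and 6 of 18 same-numbered pairs correlated above 0.1, from -0.14 to 0.27. Bst2 was highest in replicate 2 of every group and Ifng in replicate 3 of every group. What the number stands for is not given in the titles, and its part in these values was not tested. With single libraries left out, members called stayed at 0. The members' median moved beyond the spread of the library medians to -0.050 in Tcf1KO against Ctrl without Ctrl replicate 3 (range -0.050 to 0.19 over left-out libraries) and to -0.52 in the interaction with voom; the cause was not tested.

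Members without overlap rose as libraries were left out, since fewer libraries separate more easily. The ranges were 0 to 2 higher and 1 to 7 lower in Id2KO against Ctrl (7 without Id2KO replicate 3), 3 to 9 higher and 2 to 3 lower in Tcf1KO against Ctrl (9 without Ctrl replicate 2), 0 to 1 higher and 8 to 15 lower in DKO against Ctrl, 0 to 2 higher and 4 to 9 lower in DKO against Id2KO (9 without DKO replicate 2), and 0 to 1 higher and 12 to 19 lower in DKO against Tcf1KO. Median scaling gave 1 higher in Id2KO against Ctrl and 1 lower in Tcf1KO against Ctrl. Without the 3 libraries of lowest array weight (Id2KO replicate 3, DKO replicate 3 and Ctrl replicate 2) there were 4 higher and 8 lower in Id2KO against Ctrl, 9 higher in Tcf1KO against Ctrl, 1 higher and 11 lower in DKO against Ctrl, and 3 higher and 7 lower in DKO against Id2KO.

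Counts over all genes varied with the setting: 2 to 33 in Id2KO against Ctrl, 0 to 7 in Tcf1KO, 0 to 27 in DKO, 0 to 27 in DKO against Id2KO, 0 to 15 in DKO against Tcf1KO, 0 to 1 in the interaction, and 8 to 85 and 3 to 89 in the Id2 and Tcf7 averages. A fit of only the compared groups gave no value for the interaction and the averages. Members with few reads, such as Mx2 and Isg15 in DKO, are limited by depth.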
